A study of Homo sapiens with 12 samples.

Results

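The transcripts described here encode the chains of the interferon receptors and the Janus kinases bound to them, 10 genes chosen by symbol out of the 63129 Ensembl gene IDs of an RNA sequencing table. They are IFNAR1 and IFNAR2, IFNGR1 and IFNGR2, IFNLR1 and IL10RB, and JAK1, JAK2, JAK3 and TYK2. All 10 were among the 18731 genes tested, and 8 of them reached 1 FPKM (fragments mapped, scaled to transcript length and library size) in all 12 libraries. IFNLR1 reached it in 8 and JAK2 in 10.

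The libraries came from 3 established human lymphoma lines of the germinal centre subtype of diffuse large B cell lymphoma. Each carries a mutation that activates EZH2, the methyltransferase of Polycomb repressive complex 2, within its catalytic SET domain. The groups were RL with DMSO (n = 2), KARPAS-422 with CPI-169 (n = 3), KARPAS-422 with DMSO (n = 3), Pfeiffer with GSK343 (n = 2) and Pfeiffer with DMSO (n = 2). CPI-169 and GSK343 inhibit EZH2 and were used at 1.5 µM, the vehicle was 0.1% DMSO, and the cells were harvested after 4 days. Lysis was in Trizol or in buffer RLT, and which library had which is not stated. The labels describe KARPAS-422 and Pfeiffer as responsive and RL as non-responsive, and each inhibitor was used in 1 line, so that line and compound cannot be told apart.

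Interferons signal through pairs of receptor chains. Type I interferons bind IFNAR1 and IFNAR2, interferon gamma binds IFNGR1 with IFNGR2 as the signalling partner, and type III interferons bind IFNLR1, which pairs with IL10RB, a chain shared with the interleukin-10 family. The chains have no kinase activity of their own. TYK2 binds IFNAR1 and IL10RB, JAK1 binds IFNAR2, IFNGR1 and IFNLR1, and JAK2 binds IFNGR2, and the kinases phosphorylate STAT factors that enter the nucleus. JAK3 binds the common gamma chain of several interleukin receptors and is not part of the interferon receptors.

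Of the receptor genes, 4 lie side by side on chromosome 21. In hg19 coordinates IFNAR2 (ENSG00000159110) spans 21:34602205-34637980, IL10RB (ENSG00000243646) 21:34638662-34669539, IFNAR1 (ENSG00000142166) 21:34696733-34732168 and IFNGR2 (ENSG00000159128) 21:34775201-34851655. IFNGR1 (ENSG00000027697) lies at 6:137518620-137540586 and IFNLR1 (ENSG00000185436) at 1:24480646-24514449. JAK1 (ENSG00000162434) lies at 1:65298911-65432187, JAK2 (ENSG00000096968) at 9:4985032-5128183, JAK3 (ENSG00000105639) at 19:17935588-17958880 and TYK2 (ENSG00000105397) at 19:10461208-10491352. These values are for whole genes, so membrane and soluble forms of IFNAR2 were not separated.

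Promoter sequence from RefSeq (GRCh38.p14) was at hand for 9 of the 10 genes, all but IFNAR2, in 16 windows of 250 bases before a transcript start. Windows of 4 genes are shown, up to the first base found in a GENCODE 29 transcript of the gene. IFNLR1 had the widest fold between group means of the 10 genes and is the one with a motif match. IL10RB moved in opposite directions with the 2 inhibitors. JAK1 (1 of its 3 windows) differed most between lines among the kinases, and TYK2 rose in both treated lines. The windows of IFNLR1, IL10RB and JAK1 held no base found in a GENCODE 29 transcript of the gene and are shown whole. For IFNLR1 and JAK1 the bases checked just past the RefSeq start were not found in one either. Capitals mark the motif match.
IFNLR1: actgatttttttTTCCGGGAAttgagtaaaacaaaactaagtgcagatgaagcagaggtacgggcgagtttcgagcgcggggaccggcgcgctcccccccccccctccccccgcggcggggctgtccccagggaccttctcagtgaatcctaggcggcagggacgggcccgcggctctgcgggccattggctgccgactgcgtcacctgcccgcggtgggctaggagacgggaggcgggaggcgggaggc
IL10RB: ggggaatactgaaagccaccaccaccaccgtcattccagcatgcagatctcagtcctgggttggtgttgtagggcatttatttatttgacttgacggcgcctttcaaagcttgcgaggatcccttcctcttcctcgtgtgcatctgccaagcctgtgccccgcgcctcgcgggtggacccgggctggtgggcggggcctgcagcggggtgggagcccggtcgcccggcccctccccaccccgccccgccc
JAK1: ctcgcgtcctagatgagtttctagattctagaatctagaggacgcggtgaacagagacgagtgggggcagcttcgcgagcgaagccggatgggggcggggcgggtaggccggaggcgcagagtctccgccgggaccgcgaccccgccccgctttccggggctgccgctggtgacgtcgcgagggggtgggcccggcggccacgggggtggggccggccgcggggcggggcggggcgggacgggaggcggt
TYK2: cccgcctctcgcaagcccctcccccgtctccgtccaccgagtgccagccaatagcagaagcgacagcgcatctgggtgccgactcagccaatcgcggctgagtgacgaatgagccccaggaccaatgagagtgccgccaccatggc

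They lie on GRCh38.p14 at chr1:24187290-24187539 (IFNLR1, minus strand), chr21:33266117-33266366 (IL10RB, plus strand), chr1:64966550-64966799 (JAK1, minus strand) and chr19:10380677-10380822 (TYK2, minus strand), and each reads 5′ to 3′ towards the gene. The 16 windows were searched on both strands for the interferon-gamma activated site TTCNNNGAA, to which STAT dimers bind, and the core of the interferon-stimulated response element, GAAA, any 2 bases and GAAA again. The first was found in 1 window, that of IFNLR1, as TTCCGGGAA at bases -238 to -230 from the start, and 6.57% of all 35116 promoter windows hold it. The second was found in 0 of the 16 windows and in 3.02% of all windows. A match of letters is a description of the sequence and no evidence of binding. GC content was 67.2% in the window of IFNLR1, 65.2% in that of IL10RB, 74.4% in that of JAK1 and 62.0% in the full window of TYK2.

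Between 14018 and 16391 genes reached 1 FPKM per library. The 5 B cell markers MS4A1, CD79A, CD79B, PAX5 and CD22 were above 1 FPKM in all 12 libraries, as were the germinal centre genes BCL6, MME, MYBL1 and LMO2, while CD38 reached it in 3. The GSK343 libraries stood apart from each other, with a root mean square difference of 0.497 in log2(FPKM + 1) against 0.185 between the Pfeiffer DMSO libraries, and the values of the 10 genes in Pfeiffer are therefore given for both. The labels do not say whether replicates were separate cultures, so the spread that p-values measure may be technical. Tests are limma on log2(FPKM + 1) with Benjamini-Hochberg adjustment over all genes tested, and a gene is said to rise or fall where the adjusted p is under 0.05.

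**Figure D1:**
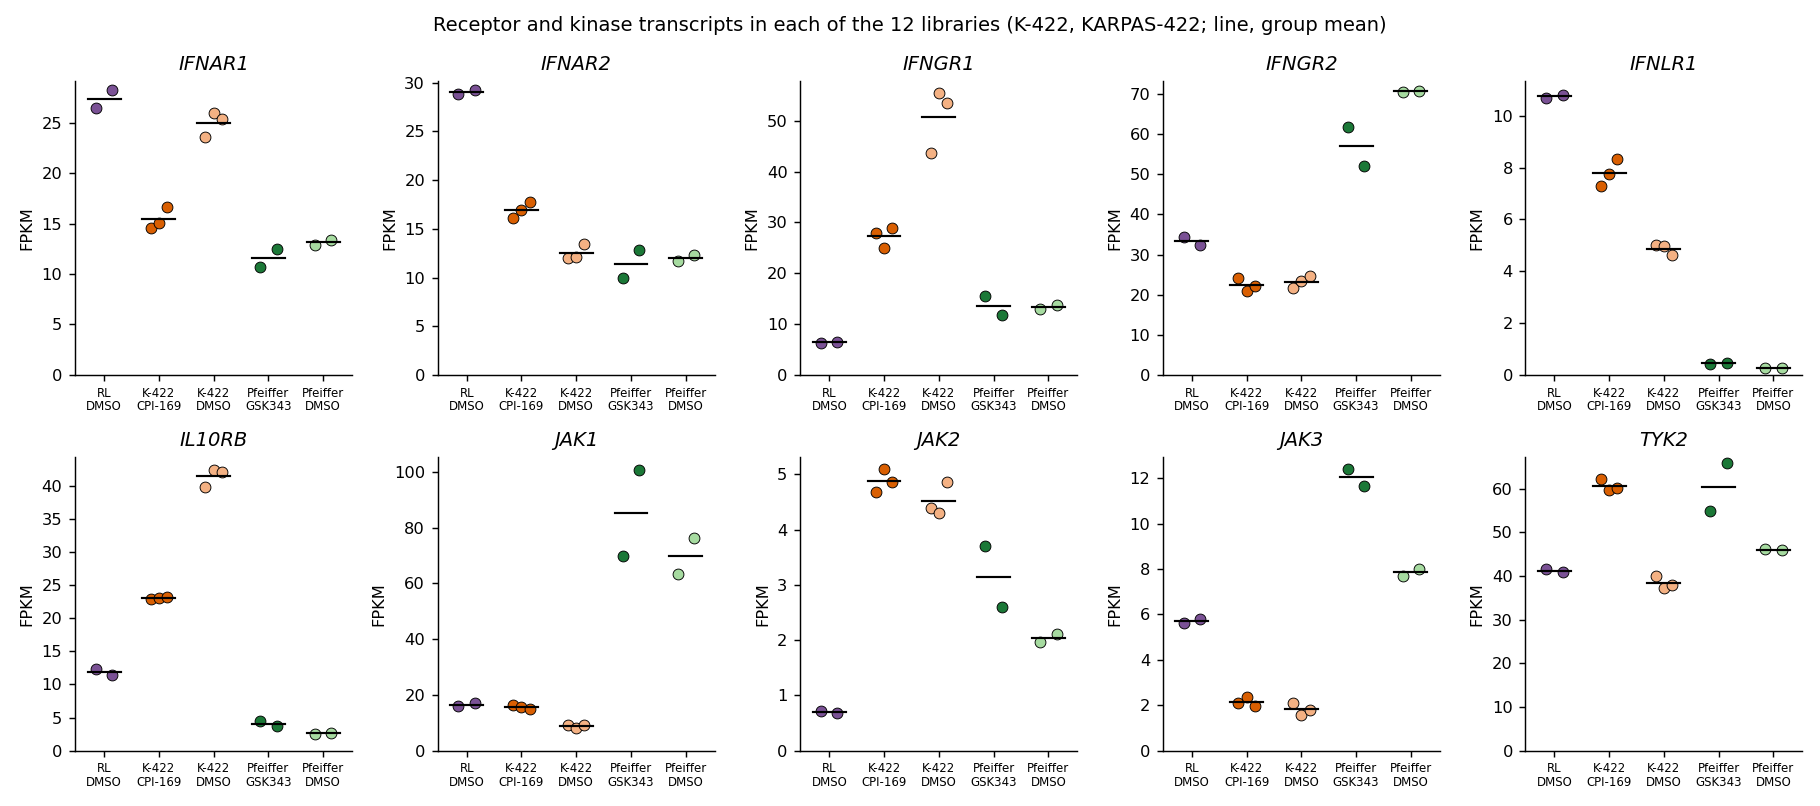
FPKM of the 10 genes (vertical axes, linear, from 0) in every library, by group (horizontal axes); points are libraries and lines are group means. IFNLR1 is under 0.5 FPKM in all 4 Pfeiffer libraries, JAK1 is above 60 FPKM there, and TYK2 varies least.

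With CPI-169 in KARPAS-422, both genes of the type I receptor changed, in opposite directions. IFNAR1, the chain bound by TYK2, had 14.5, 15.1 and 16.7 FPKM in CPI-169 libraries, against 23.5, 26.0 and 25.4 FPKM in DMSO libraries. IFNAR2, the high-affinity binding chain, had 16.1, 16.9 and 17.8 FPKM in CPI-169 libraries, against 12.03, 12.1 and 13.5 FPKM in DMSO libraries. The groups did not overlap for either gene. IFNAR1 fell by 0.66 on the log2 scale (SE 0.08, limma adjusted p = 4.72e-05) and IFNAR2 rose by 0.41 (SE 0.09, limma adjusted p = 0.00308). The ratio of IFNAR1 to IFNAR2, both per length, was 0.910 ± 0.0247 in CPI-169 libraries and 2.00 ± 0.140 in DMSO libraries (SD, n = 3 each).

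Of the interferon gamma receptor, the ligand-binding chain fell and the partner chain did not pass the test. IFNGR1 had 27.97, 25.0 and 28.8 FPKM in CPI-169 libraries, against 43.6, 55.4 and 53.6 FPKM in DMSO libraries. IFNGR1 thus fell by 0.87 on the log2 scale (SE 0.12, limma adjusted p = 9.24e-05), with no overlap of the groups. IFNGR2 averaged 22.4 ± 1.57 FPKM in CPI-169 libraries and 23.2 ± 1.53 FPKM in DMSO libraries (SD, n = 3 each), and the groups overlapped. Its log2 difference was -0.05, with a 95% interval of -0.24 to 0.14 (limma adjusted p = 0.662).

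The chains of the type III receptor also moved in opposite directions. IFNLR1, the specific chain, had 7.30, 7.73 and 8.33 FPKM in CPI-169 libraries, against 5.02, 4.99 and 4.61 FPKM in DMSO libraries. IL10RB, the shared chain, had 22.9, 23.04 and 23.2 FPKM in CPI-169 libraries, against 39.9, 42.4 and 42.1 FPKM in DMSO libraries. Every CPI-169 library lay above every DMSO library for IFNLR1 and below them for IL10RB. IFNLR1 rose by 0.58 on the log2 scale (SE 0.07, limma adjusted p = 7.74e-05) and IL10RB fell by 0.82 (SE 0.07, limma adjusted p = 5.62e-06). The ratio of IFNLR1 to IL10RB was 0.338 ± 0.0200 in CPI-169 libraries and 0.118 ± 0.00805 in DMSO libraries.

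Of the kinase genes, JAK1 and TYK2 rose with CPI-169. JAK1, the kinase present in all interferon receptor complexes, had 16.3, 15.5 and 14.9 FPKM in CPI-169 libraries, against 9.14, 8.09 and 9.23 FPKM in DMSO libraries. TYK2, the partner kinase in type I and type III receptors, had 62.2, 59.8 and 60.1 FPKM in CPI-169 libraries, against 39.9, 37.2 and 38.0 FPKM in DMSO libraries. Neither gene had overlapping groups, and the log2 fold changes were 0.75 for JAK1 (SE 0.12, limma adjusted p = 4.39e-04) and 0.65 for TYK2 (SE 0.07, limma adjusted p = 3.14e-05). JAK2, the partner kinase of the interferon gamma receptor, averaged 4.88 ± 0.210 FPKM in CPI-169 libraries and 4.52 ± 0.299 FPKM in DMSO libraries. JAK3 averaged 2.14 ± 0.192 FPKM in CPI-169 libraries and 1.81 ± 0.271 FPKM in DMSO libraries. For both the groups overlapped, and the log2 differences of 0.09 (95% interval -0.13 to 0.32, limma adjusted p = 0.490) and 0.16 (-0.04 to 0.36, limma adjusted p = 0.156) did not pass.

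In all, 4 of the 10 genes were called higher and 3 lower in CPI-169 libraries, in a comparison where 54.2% of all genes tested were called, 26.9% higher and 27.3% lower. Their median log2 difference was 0.13, and that of all genes tested was 0.01. The libraries did not overlap for 7 of the 10 genes, and for 65.0% of all genes tested. A count of 7 of 10 is not far from that background, so the result lies in the direction and size for each gene rather than in the number called. No alternative moved a call of the 10 genes in this comparison, JAK2 not being tested at a minimum of 5 FPKM.

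Markers of other cells moved in KARPAS-422 as well. The summed FPKM of 6 T and NK cell markers was 55.4 to 62.3 in CPI-169 libraries and 35.5 to 37.2 in DMSO libraries, with 4 of the 6 at 1 FPKM in at least 1 CPI-169 library and 2 of the 6 in DMSO libraries. The sum rests mainly on CD3G, but all 5 markers tested were called higher, with a median log2 difference of 0.56. Of all genes tested 26.9% were called higher. CD2 was at most 0.0962 FPKM in any library. The B cell markers summed to 1349 to 1468 FPKM in CPI-169 libraries and 1611 to 1777 FPKM in DMSO libraries. Among the 5, calls were mixed, with 1 higher and 2 lower, where 27.3% of all genes tested were called lower. The germinal centre markers summed to 369.0 to 375.4 FPKM in CPI-169 libraries and 305.6 to 322.5 FPKM in DMSO libraries, with 4 of the 5 called higher and 0 lower. The part of these shifts in the results was not tested, and in bulk RNA fewer cells of a type and less RNA per cell cannot be told apart. The 5 myeloid markers summed to at most 0.640 FPKM in KARPAS-422.

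**Figure D2:**
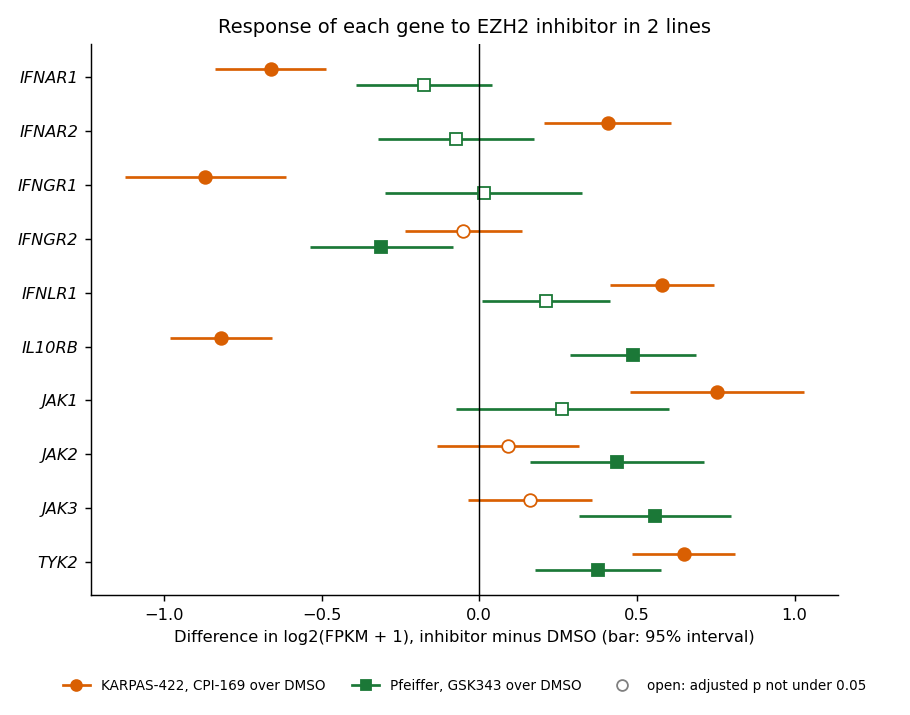
Difference in log2(FPKM + 1) between inhibitor and DMSO (horizontal axis) for each gene in KARPAS-422 (circles) and Pfeiffer (squares), with 95% intervals; filled symbols have an adjusted p under 0.05. TYK2 is called higher in both lines, and IL10RB lies at -0.82 in KARPAS-422 and at 0.49 in Pfeiffer.

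With GSK343 in Pfeiffer, 3 of the 4 kinase genes rose. JAK3 had 12.4 and 11.7 FPKM in GSK343 libraries, against 7.69 and 8.003 FPKM in DMSO libraries. TYK2 had 54.9 and 65.9 FPKM in GSK343 libraries, against 46.2 and 46.0 FPKM in DMSO libraries. JAK2 had 3.70 and 2.60 FPKM in GSK343 libraries, against 1.96 and 2.12 FPKM in DMSO libraries. Both GSK343 libraries lay above both DMSO libraries for each, with log2 fold changes of 0.56 for JAK3 (SE 0.11, limma adjusted p = 0.00357), 0.38 for TYK2 (SE 0.09, limma adjusted p = 0.0107) and 0.44 for JAK2 (SE 0.12, limma adjusted p = 0.0236). The call of JAK2 was lost without GSK343 replicate 1 (log2 difference 0.24, limma adjusted p = 0.0666) without DMSO replicates 1 or 2 (0.127 and 0.0692) and after quantile normalization (0.0632), and that of TYK2 without DMSO replicates 1 or 2 (0.0545 and 0.0518).

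JAK1 differed between the treated libraries. It had 69.7 and 100.8 FPKM in GSK343 replicates 1 and 2, against 63.4 and 76.4 FPKM in DMSO libraries. Replicate 1 lay between the DMSO libraries and replicate 2 above them. The log2 difference of 0.26 did not pass (95% interval -0.07 to 0.60, limma adjusted p = 0.223). Without GSK343 replicate 1 JAK1 passed, at a log2 difference of 0.53 (limma adjusted p = 0.00546), with the spread of the single remaining library taken from the other groups.

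Among the receptor genes of Pfeiffer, IL10RB rose and IFNGR2 fell. IL10RB had 4.45 and 3.65 FPKM in GSK343 libraries, against 2.53 and 2.64 FPKM in DMSO libraries, a log2 fold change of 0.49 (SE 0.09, limma adjusted p = 0.00258). IFNGR2 had 61.8 and 52.2 FPKM in GSK343 libraries, against 70.6 and 70.8 FPKM in DMSO libraries, and it fell by 0.31 on the log2 scale (SE 0.10, limma adjusted p = 0.0439). No libraries overlapped for either gene. The IFNGR2 call lies at the threshold: 15 of 19 alternatives lost it, with limma adjusted p-values up to 0.462.

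The other receptor genes of Pfeiffer did not pass. IFNAR1 had 10.6 and 12.4 FPKM in GSK343 libraries, against 12.9 and 13.3 FPKM in DMSO libraries. Its log2 difference was -0.17 (95% interval -0.39 to 0.04, limma adjusted p = 0.207), and it passed at -0.28 without GSK343 replicate 2 (limma adjusted p = 0.0499). IFNAR2 had 9.94 and 12.9 FPKM in GSK343 libraries, against 11.7 and 12.3 FPKM in DMSO libraries. IFNGR1 had 15.6 and 11.7 FPKM in GSK343 libraries, against 13.01 and 13.8 FPKM in DMSO libraries. For these 2 genes GSK343 replicates 1 and 2 lay on opposite sides of the DMSO libraries, and the 95% intervals of the log2 difference were -0.32 to 0.17 for IFNAR2 and -0.30 to 0.33 for IFNGR1. IFNLR1 was low in Pfeiffer, with 0.425 and 0.475 FPKM in GSK343 libraries, against 0.255 and 0.251 FPKM in DMSO libraries. Its log2 difference of 0.21 did not pass (limma adjusted p = 0.11), but with a pseudocount of 0.1, which compresses low values less, it was 0.64 and passed (limma adjusted p = 0.00601).

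In all, 4 of the 10 genes were higher and 1 lower with GSK343, where 29.5% of all genes tested were called, 12% higher and 17.5% lower. The libraries did not overlap for 7 of the 10 genes, and for 57.8% of all genes tested. The median log2 difference was 0.24 for the 10 genes and -0.03 for all genes tested. With the Pfeiffer libraries fitted alone limma called 0 genes in the whole table at an adjusted p under 0.05, and 4634 genes, 4 of the 10 among them, had an unadjusted p under 0.05, so the Pfeiffer calls rest on a spread shared with the other lines. The summed epithelial and stromal markers, mostly EPCAM, were 57.2 to 79.2 FPKM in GSK343 libraries and 140.1 to 141.2 FPKM in DMSO libraries, with 2 of the 4 tested called higher, 1 lower and a median log2 difference of 0.26. The B cell markers summed to 2039 to 2484 FPKM in GSK343 libraries and 2566 to 2629 FPKM in DMSO libraries, but 0 of the 5 were called in either direction. The 5 germinal centre markers summed to 108.7 and 290.9 FPKM in the GSK343 libraries and 123.0 to 125.7 FPKM in DMSO libraries, with 2 called higher and 2 lower. The part of these shifts in the results was not tested.

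The treatments were then compared with each other through the difference of the 2 effects, that in Pfeiffer minus that in KARPAS-422. IL10RB had the largest difference of the 10 genes, 1.31 on the log2 scale (SE 0.12, limma adjusted p = 2.02e-05), being higher in every GSK343 library and lower in every CPI-169 library than its DMSO controls. IFNGR1 differed by 0.88 (SE 0.18, limma adjusted p = 0.00312), IFNAR1 by 0.49 (SE 0.13, limma adjusted p = 0.0104) and JAK3 by 0.40 (SE 0.14, limma adjusted p = 0.0416). For all of them the signed effect was higher in Pfeiffer. The Pfeiffer effects of IFNGR1 and IFNAR1, 0.01 and -0.17, did not pass, while both genes fell in KARPAS-422 (-0.87 and -0.66). IFNAR2 differed by -0.48 (SE 0.14, limma adjusted p = 0.021) and IFNLR1 by -0.37 (SE 0.12, limma adjusted p = 0.0281). For both the signed effect on log2(FPKM + 1) was lower in Pfeiffer, where neither gene passed, and both rose in KARPAS-422. For IFNLR1 this rests on the pseudocount of 1, as with 0.1 the difference was -0.03 (limma adjusted p = 0.917). Its ratio of mean FPKM, inhibitor over DMSO, was 1.78 in Pfeiffer and 1.60 in KARPAS-422. These 4 higher and 2 lower differences compare with 42.6% of all genes tested called, 18.8% higher and 23.8% lower. IFNGR2, JAK1, JAK2 and TYK2 did not pass, with limma adjusted p-values of 0.139, 0.0676, 0.107 and 0.0834. Of the 10 genes, TYK2 was the one called higher in both lines, as were 5.65% of all genes tested, and 0 were called lower in both, as were 7.02% of all genes tested.

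**Figure D3:**
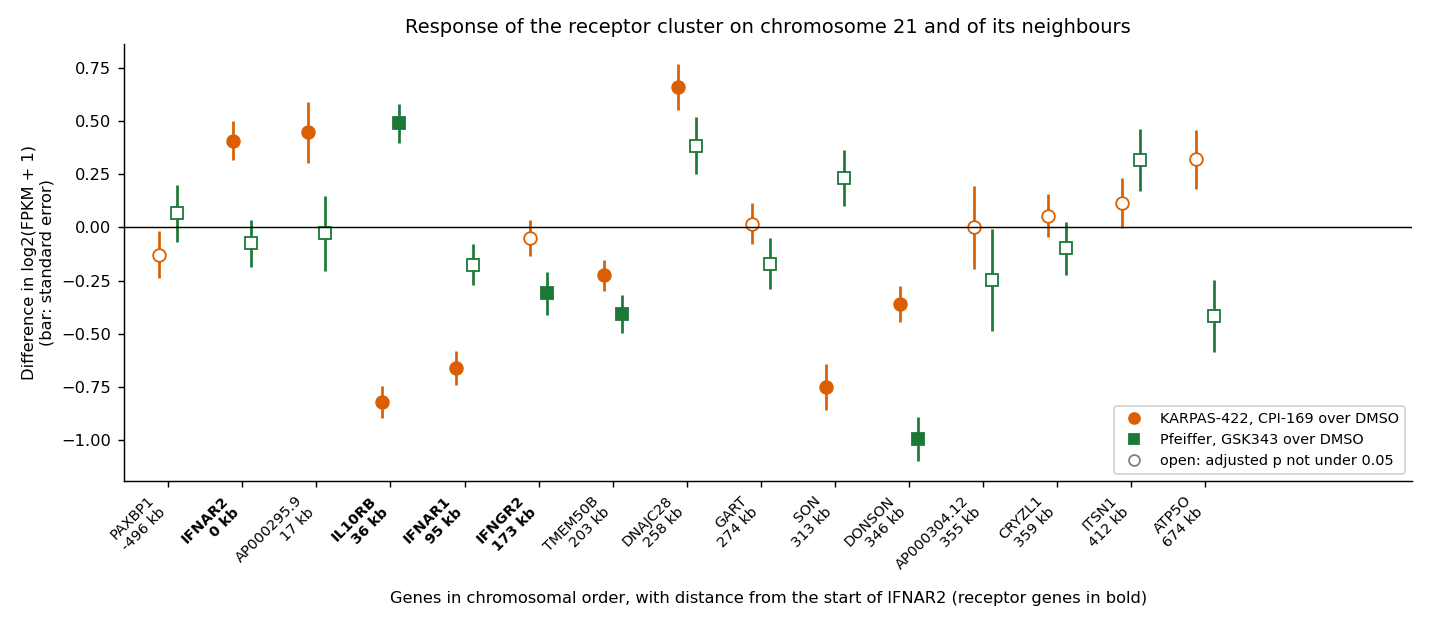
Difference in log2(FPKM + 1) between inhibitor and DMSO (vertical axis, bars are standard errors) for the tested protein-coding genes around the receptor cluster, in chromosomal order (horizontal axis); receptor genes are in bold and filled symbols have an adjusted p under 0.05. With CPI-169 IFNAR2 lies above 0 while IL10RB and IFNAR1, its neighbours, lie below.

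The 4 genes of the chromosome 21 cluster did not move as a block. With CPI-169, IFNAR2 rose, IL10RB and IFNAR1 fell and IFNGR2 did not pass, and with GSK343 IL10RB rose, IFNGR2 fell and the other two did not pass. Of 11 other protein-coding genes tested within 500 kb, CPI-169 libraries had 2 called higher and 3 lower, and GSK343 libraries 0 higher and 2 lower. The nearest on the far side of IFNGR2 is TMEM50B, a membrane protein gene that overlaps it by 46865 bases, which fell by 0.22 on the log2 scale with CPI-169 (limma adjusted p = 0.0232) and by 0.41 with GSK343 (limma adjusted p = 0.00694). On the other side OLIG1, a transcription factor gene of oligodendrocytes, was below the filter on low values. Overlaps limit these values, since the handling of strand is not stated. IFNAR2 overlaps the antisense gene IL10RB-AS1, at 0.572 to 6.46 FPKM, by 1804 bases. AP000295.9, at 0.316 to 1.38 FPKM, overlaps IFNAR2 by 18903 and IL10RB by 17421 bases. It is counted among the 11 neighbours and was called higher with CPI-169 (log2 difference 0.45, limma adjusted p = 0.0213), as IFNAR2 was. Around JAK2 on chromosome 9, 4 of 8 protein-coding neighbours were higher and 1 lower in CPI-169 libraries, and 1 was higher and 3 lower in GSK343 libraries. The same shares of all genes tested apply, and these counts too are not read as a trait of the locus. The JAK2 neighbour RCL1, a ribosomal RNA processing gene, fell by 0.80 on the log2 scale with CPI-169 (limma adjusted p = 9.87e-06). INSL6 on the other side was below the filter. Overlap limits the JAK2 values too, as it overlaps the pseudogene RP11-39K24.7 by 1938 bases. In Pfeiffer that pseudogene averaged 2.15 FPKM with GSK343 and 2.78 FPKM with DMSO, against 3.15 and 2.04 FPKM for JAK2.

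For 9 of the 10 genes, TYK2 being the exception, the widest log2 difference between lines with DMSO was larger in size than that with either inhibitor. IL10RB had 12.3 and 11.4 FPKM in RL, 39.9 to 42.4 FPKM in KARPAS-422 and 2.53 and 2.64 FPKM in Pfeiffer, all with DMSO. The log2 differences were -1.73 for RL over KARPAS-422 (SE 0.08, limma adjusted p = 1.45e-08), 1.84 for RL over Pfeiffer (SE 0.09, limma adjusted p = 1.48e-08) and 3.56 for KARPAS-422 over Pfeiffer (SE 0.08, limma adjusted p = 2.91e-11). IFNLR1 had 10.7 and 10.8 FPKM in RL, 4.61 to 5.02 FPKM in KARPAS-422 and 0.255 and 0.251 FPKM in Pfeiffer with DMSO. The group means of IFNLR1 spanned 42.4-fold, the widest of the 10 genes, against 16.0-fold for IL10RB. That fold rests on a mean of 0.253 FPKM in Pfeiffer with DMSO. On log2(FPKM + 1) IL10RB was the wider, as the widest difference of IFNLR1 was 3.23 for RL over Pfeiffer (SE 0.09, limma adjusted p = 2.37e-10). That order depends on the scale. Among the alternatives, the IFNLR1 difference reached 4.94, against at most 3.95 for IL10RB in KARPAS-422 over Pfeiffer. With both chains low, Pfeiffer had the lowest levels of the type III receptor transcripts, and no library of another line overlapped it.

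JAK1 was highest in Pfeiffer and lowest in KARPAS-422. It had 16.0 and 17.0 FPKM in RL, 8.09 to 9.23 FPKM in KARPAS-422 and 63.4 and 76.4 FPKM in Pfeiffer with DMSO. The log2 difference was 0.83 for RL over KARPAS-422 (SE 0.14), -2.01 for RL over Pfeiffer (SE 0.15) and -2.85 for KARPAS-422 over Pfeiffer (SE 0.14), with limma adjusted p-values of 2.91e-04, 5.03e-07 and 9.06e-09. JAK1 of CPI-169-treated KARPAS-422 reached the range of RL, and those groups overlapped, as did GSK343 and DMSO in Pfeiffer.

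JAK2 was lowest in RL, at 0.725 and 0.682 FPKM, against 4.30 to 4.86 FPKM in KARPAS-422 and 1.96 and 2.12 FPKM in Pfeiffer with DMSO. RL was lower than KARPAS-422 by a log2 difference of -1.69 (SE 0.11, limma adjusted p = 2.17e-07) and than Pfeiffer by -0.83 (SE 0.12, limma adjusted p = 1.08e-04), the second losing its call after quantile normalization (limma adjusted p = 0.0534). JAK3 had 5.61 and 5.81 FPKM in RL, 1.56 to 2.10 FPKM in KARPAS-422 and 7.69 and 8.003 FPKM in Pfeiffer with DMSO, and all 3 pairs of lines differed. Of the TYK2 differences between lines, KARPAS-422 over Pfeiffer alone passed (log2 difference -0.26, SE 0.08, limma adjusted p = 0.0128), and 3 of 19 alternatives lost that call. TYK2 varied least, its group means spanning 1.58-fold. It had 41.7 and 40.8 FPKM in RL, 37.2 to 39.9 FPKM in KARPAS-422 and 46.2 and 46.0 FPKM in Pfeiffer with DMSO, and RL passed against neither line (log2 differences of 0.10 and -0.16, 95% intervals -0.08 to 0.29 and -0.36 to 0.04, limma adjusted p of 0.296 and 0.142). Against Pfeiffer it passed in 3 of 19 alternatives, with limma adjusted p-values down to 0.0235.

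The interferon gamma receptor chains differed between all 3 lines. IFNGR1 was highest and IFNGR2 lowest in KARPAS-422, while both were lower in RL than in Pfeiffer. IFNGR1 had 6.34 and 6.45 FPKM in RL, 43.6 to 55.4 FPKM in KARPAS-422 and 13.01 and 13.8 FPKM in Pfeiffer with DMSO. IFNGR2 had 34.3 and 32.5 FPKM in RL, 21.6 to 24.6 FPKM in KARPAS-422 and 70.6 and 70.8 FPKM in Pfeiffer with DMSO. All 6 differences passed, and the widest were -2.80 on the log2 scale for IFNGR1 in RL over KARPAS-422 (SE 0.13, limma adjusted p = 1.14e-08) and -1.57 for IFNGR2 in KARPAS-422 over Pfeiffer (SE 0.09, limma adjusted p = 4.39e-08). The ratio of IFNGR1 to IFNGR2 was 0.192 ± 0.0100 in RL, 2.19 ± 0.169 in KARPAS-422 and 0.190 ± 0.00714 in Pfeiffer with DMSO, and 1.22 ± 0.0766 with CPI-169.

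Both chains of the type I receptor were high in RL. IFNAR1 had 26.5 and 28.2 FPKM in RL, 23.5 to 26.0 FPKM in KARPAS-422 and 12.9 and 13.3 FPKM in Pfeiffer with DMSO. IFNAR2 had 28.8 and 29.2 FPKM in RL, 12.03 to 13.5 FPKM in KARPAS-422 and 11.7 and 12.3 FPKM in Pfeiffer with DMSO. IFNAR1 was higher in RL than in Pfeiffer (log2 difference 1.01, SE 0.10, limma adjusted p = 3.55e-06) but did not pass against KARPAS-422 (0.13, 95% interval -0.07 to 0.33, limma adjusted p = 0.23), although after median scaling it did (limma adjusted p = 0.0437). IFNAR2 was higher in RL than in KARPAS-422 by 1.15 (SE 0.10, limma adjusted p = 1.98e-06) and than in Pfeiffer by 1.21 (SE 0.11, limma adjusted p = 2.42e-06), and KARPAS-422 and Pfeiffer overlapped.

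**Figure D4:**
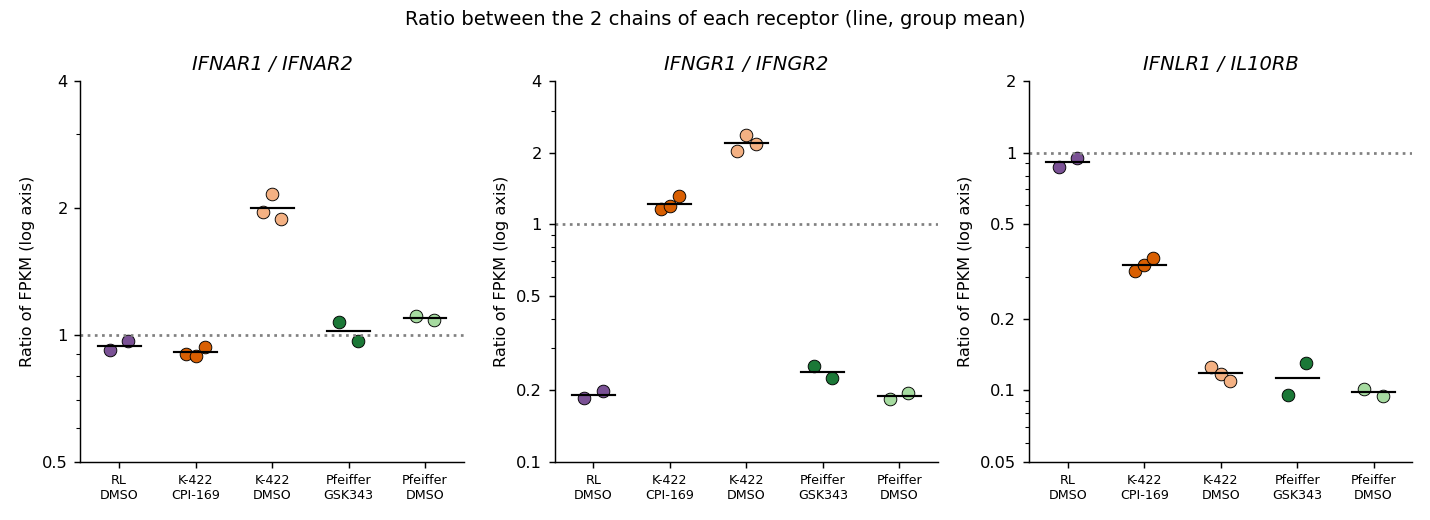
Ratio of the FPKM of the 2 chains of each receptor (vertical axes, logarithmic) in every library, by group (horizontal axes); points are libraries, lines are group means and the dotted line marks equal levels. The ratio of IFNAR1 to IFNAR2 is near 2 in DMSO-treated KARPAS-422 and near 1 in the other groups.

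Read against all genes, the number of calls among the 10 was not far from the background. RL over KARPAS-422 had 5 of 10 genes higher and 3 lower, where 66.8% of all genes tested were called, 33.6% higher and 33.2% lower. RL over Pfeiffer had 4 higher and 5 lower, where 74.3% were called, 35.6% higher and 38.7% lower. KARPAS-422 over Pfeiffer had 5 higher and 4 lower, where 83.0% were called, 39.8% higher and 43.2% lower. Libraries did not overlap for 10, 10 and 9 of the 10 genes in these comparisons, and for 80.0%, 91.0% and 89.9% of all genes tested. These comparisons share DMSO libraries with each other and with the treatments, and library numbers ran separately in each line, so a batch of libraries cannot be told apart from a line.

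**Figure D5:**
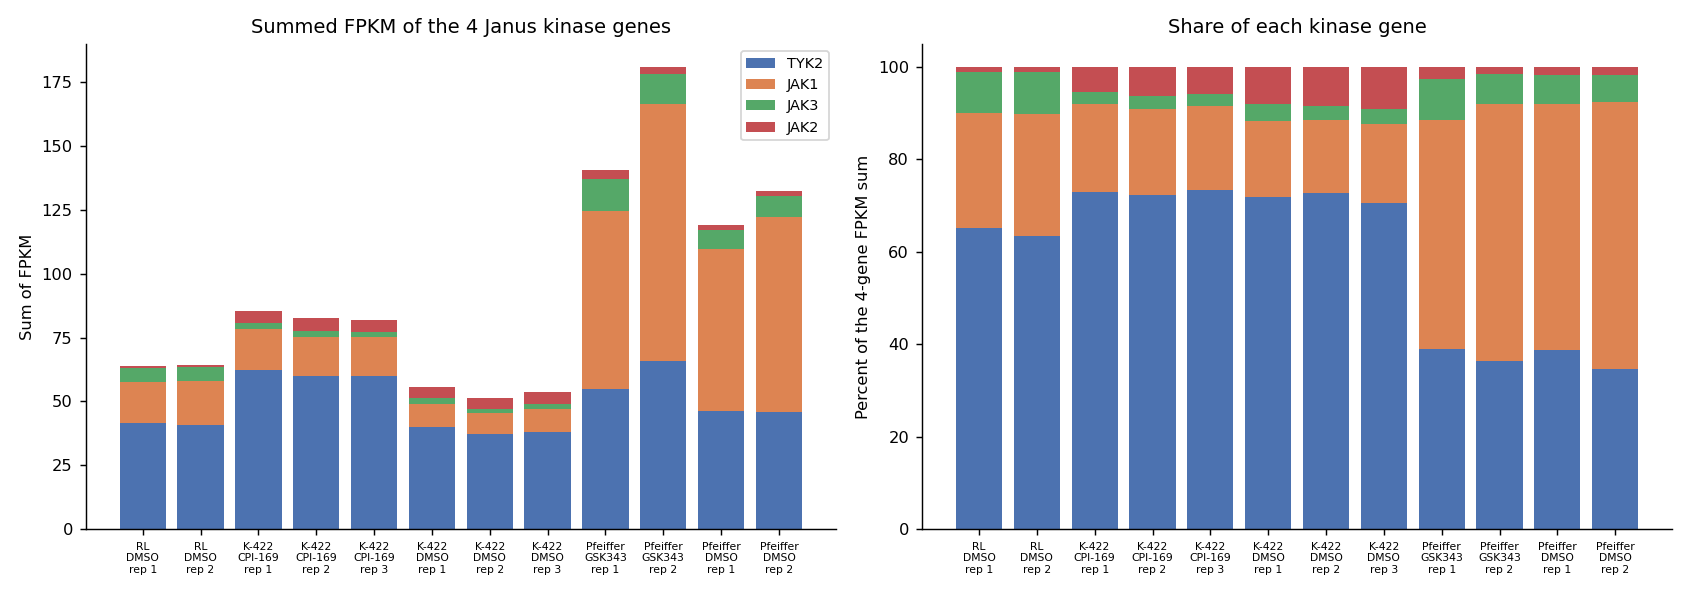
Summed FPKM of the 4 Janus kinase genes (left) and the percent of that sum held by each (right), per library, stacked as TYK2, JAK1, JAK3 and JAK2 from the bottom. JAK1 holds more than TYK2 in all 4 Pfeiffer libraries, and TYK2 holds most of the sum in KARPAS-422 and RL.

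On a per-length scale the kinase transcripts had a different make-up in each line. TYK2 held 64.3% ± 1.18 of the summed FPKM of the 4 kinase genes in RL, 72.9% ± 0.572 in KARPAS-422 with CPI-169, 71.7% ± 1.11 in KARPAS-422 with DMSO, 39.0% and 36.4% in the GSK343 libraries and 36.7% ± 2.86 in Pfeiffer with DMSO. JAK1 held 25.7% ± 1.04 in RL, 18.7% ± 0.416 in KARPAS-422 with CPI-169, 16.5% ± 0.665 in KARPAS-422 with DMSO, 49.5% and 55.7% in the GSK343 libraries and 55.4% ± 3.18 in Pfeiffer with DMSO. JAK2 held 8.45% ± 0.559 in KARPAS-422 with DMSO, its highest share, and 1.10% ± 0.0509 in RL. The sum itself was 83.3 ± 1.75 FPKM with CPI-169 and 53.5 ± 2.22 FPKM with DMSO in KARPAS-422, without overlap, and 140.7 and 180.9 FPKM with GSK343 against 119.3 and 132.5 FPKM with DMSO in Pfeiffer. Shares of transcripts do not give shares of protein.

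The factors downstream were next described. Of 7 genes, STAT genes and IRF9, the DNA-binding partner of STAT2, 6 were tested. With CPI-169, 5 were called higher and 0 lower, and with GSK343 6 higher and 0 lower, with median log2 differences of 0.69 and 0.71. Of all genes tested 26.9% were called higher with CPI-169 and 12% with GSK343. STAT2, which acts below the type I and type III receptors, averaged 122.7 ± 4.02 FPKM with CPI-169 and 32.4 ± 1.801 FPKM with DMSO in KARPAS-422. STAT6, the interleukin-4 effector, averaged 116.2 ± 2.11 FPKM with CPI-169 and 53.6 ± 2.72 FPKM with DMSO, and STAT3, the interleukin-6 and interleukin-10 effector, averaged 19.4 ± 0.816 FPKM with CPI-169 and 12.02 ± 0.672 FPKM with DMSO. In Pfeiffer the 3 smallest adjusted p-values were those of STAT5A, STAT2 and STAT6, with log2 fold changes of 1.25, 0.64 and 0.77.

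Genes that inhibit the pathway were called in both directions with each compound. Of 20 genes 19 were tested, with 3 called higher and 7 lower for CPI-169, and 6 higher and 1 lower for GSK343, with medians of -0.11 and 0.10. The shares of all genes tested were 26.9% higher and 27.3% lower for CPI-169, and 12% higher and 17.5% lower for GSK343. The number called in either direction was not far from that of all genes tested, 54.2% for CPI-169 and 29.5% for GSK343. USP18, which displaces JAK1 from IFNAR2, averaged 58.2 ± 3.89 FPKM with CPI-169 and 3.97 ± 0.604 FPKM with DMSO in KARPAS-422 (log2 fold change 3.58, SE 0.31, limma adjusted p = 4.07e-06). SOCS1, which blocks the kinase domains, rose with CPI-169 by 1.09 and with GSK343 by 0.87 on the log2 scale (limma adjusted p of 1.79e-05 and 0.0012). PIAS1, an inhibitor of STAT factors, fell by 0.82 on the log2 scale with CPI-169 (limma adjusted p = 5.02e-06). In Pfeiffer PTPN1, a phosphatase that acts on JAK2 and TYK2, and SOCS3, an inhibitor of JAK1 and JAK2, rose by 0.71 and 0.34.

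Of 28 other cytokine receptor genes that use these kinases 15 were tested, with 5 called higher and 2 lower for CPI-169, and 4 higher and 0 lower for GSK343, with medians of 0.24 and 0.15. The number called was near or below the share of all genes tested, 54.2% for CPI-169 and 29.5% for GSK343. In KARPAS-422 the smallest adjusted p-values were those of CSF2RB, the shared chain of the GM-CSF receptor (8.88 ± 0.643 FPKM with CPI-169 and 2.15 ± 0.158 FPKM with DMSO), IL13RA1 and the interleukin-21 receptor gene IL21R, with log2 fold changes of 1.65, 1.72 and 0.84. In Pfeiffer they were those of IL6ST, the shared chain of the interleukin-6 family (8.57 ± 1.30 FPKM with GSK343 and 2.55 ± 0.290 FPKM with DMSO, n = 2 each), IL10RA, the interleukin-10 chain that pairs with IL10RB, and IL2RA, with log2 fold changes of 1.43, 0.85 and 0.42. IL10RA averaged 152.8 ± 17.5 FPKM with GSK343 and 84.1 ± 6.86 FPKM with DMSO.

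For each of the 10 genes, the 2 genes with the most alike pattern over the 12 libraries were found by the root mean square difference of log2(FPKM + 1), each gene centred on its own mean. For the type I receptor these were TNPO3 (0.0864) and VPRBP (0.0870) for IFNAR1, and MLST8 (0.0813) and KAT8 (0.0862) for IFNAR2. They were P2RX4 (0.140) and CYP20A1 (0.168) for IFNGR1, and GAPDHP38 (0.0822) and HNRNPCP5 (0.0852) for IFNGR2. They were BCL2 (0.230) and ARHGAP24 (0.239) for IFNLR1, and ACAP2 (0.161) and HECA (0.197) for IL10RB. Of the kinases, JAK1 was most like CD74 (0.162) and STAT3 (0.201), JAK2 like PRKAG2 (0.107) and TPST1 (0.151), JAK3 like IGHV3-33 (0.145) and EEF2 (0.165), and TYK2 like TDRKH (0.0880) and RHOT2 (0.0911). STAT3 averaged 93.1 ± 32.6 FPKM in Pfeiffer with GSK343, 62.3 ± 2.81 FPKM in Pfeiffer with DMSO and 12.02 to 19.4 FPKM in the other groups. The libraries share their lines and inhibitors, so likeness over them mainly reflects differences between 3 lines and is a description.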

How the data were processed

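RNA was sequenced in 12 libraries of 3 cell lines. The authors deposited FPKM values per Ensembl gene. The submitters' processing notes name TopHat 1.4.1, Cufflinks and hg19. The annotation release, the library kit and how strand was handled are not stated. FPKM sums ran from 371965 to 630387; read depth is unknown, so no counting interval is given, and a value of 0 can be a failed estimate. Columns were matched to labels by title, and 77 genes with missing values were left out. Where a symbol had several rows, the one on a primary chromosome with the highest mean was used. The 18731 genes that reached 1 FPKM in 2 or more libraries were tested on log2(FPKM + 1), which understates changes of low genes, with limma 3.58.1 (R 4.3.3, intensity trend, 5 groups in 1 fit, 7 residual and 3.45 prior degrees of freedom), adjustment by Benjamini-Hochberg, and calls at an adjusted p under 0.05. The fit was tested on simulated data in which all groups shared the same spread per gene. That test cannot show how the wider spread between the GSK343 libraries affects calls.

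Alternatives were a pseudocount of 0.1, no filter, a minimum of 5 FPKM, quantile normalization, median scaling, the compared groups alone, a replicate block and leaving out each library. Named genes were the 10 members, the 3 genes with the smallest adjusted p per pathway list and treatment, direct protein-coding neighbours, and the 2 genes most alike in pattern. The members and lists were chosen with earlier results of these data known. A few list genes are not reported here and were left out of list counts and sums. GENCODE 29 gave gene classes, matched on Ensembl IDs, and promoter sequences, on another build than the table, from RefSeq.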

Additional observations from a re-analysis of the deposited data

Results flagged for a closer look

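A test of the difference between the 2 inhibitor effects (Pfeiffer minus KARPAS-422, limma with Benjamini-Hochberg adjustment) passed for 6 of the 10 genes. On the log2 scale the difference was 1.31 for IL10RB, 0.88 for IFNGR1, 0.49 for IFNAR1, 0.40 for JAK3, -0.48 for IFNAR2 and -0.37 for IFNLR1. Those of IL10RB, IFNGR1 and IFNAR1 passed in all 19 alternatives. The call of JAK3 was lost in 12 of the 19, that of IFNLR1 in 7 and that of IFNAR2 in 2. With a pseudocount of 0.1 the difference of IFNLR1 was -0.03 (limma adjusted p = 0.917). Line and compound differ together between the 2 effects and cannot be told apart. No group held the 4 libraries needed to look for a single library far from its group.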

How the results depend on the processing

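Over 1134 recalculated log2 differences of the 10 genes, 1072 kept their side of the threshold, 50 lost a call and 12 gained one, and 0 called differences changed sign. With CPI-169 in KARPAS-422, 7 of the 10 genes were called in every leave-one-out fit. With GSK343 in Pfeiffer the count of 5 became 3 after quantile normalization, 0 with Pfeiffer fitted alone (as for the whole table, 0 genes against 5535) and 2 to 5 on leaving out a library, when the genes called in the whole table numbered 3003 to 8681. For the difference of the effects the count of 6 became 3 to 9 on leaving out a library, the lowest without CPI-169 replicate 3 or Pfeiffer DMSO replicate 2. JAK2 was not tested at a minimum of 5 FPKM. Why these calls moved was not tested. Whether replicate numbers pair the libraries was not settled. In KARPAS-422 deviations of same-numbered libraries from their group means correlated at -0.152, -0.252 and 0.156 across genes. In Pfeiffer both same-numbered pairs gave 0.14, but with 2 libraries a group the pairs are not independent and cannot decide it. With a replicate block the log2 difference of IFNGR2 with GSK343 stayed at -0.31 and lost its call (limma adjusted p = 0.0744). Scaling moved the median of all genes by over 0.1 for baseline contrasts with Pfeiffer after quantile normalization (by 0.15 for RL over Pfeiffer and 0.16 for KARPAS-422 over Pfeiffer), where TYK2 in KARPAS-422 over Pfeiffer no longer passed (-0.11, limma adjusted p = 0.302). Values of IFNLR1 in Pfeiffer and of JAK2 in RL lie under 1 FPKM, where FPKM is least certain.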
